A study of Mus musculus with 32 samples.

Results

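The circadian clock and PAR bZIP genes are a set of 10 transcription factor and clock protein genes, chosen by gene symbol and found as 10 of the 24197 genes in the authors' deposited table of mouse liver RNA. They comprise the PAR bZIP factors Dbp, Tef and Hlf, the REV-ERB nuclear receptors Nr1d1 and Nr1d2, the Period genes Per1, Per2 and Per3, and the activators Arntl (also called Bmal1) and Npas2. The series held 32 outbred Crl:CD1(ICR) mice in 8 groups, and poly(A) RNA of each liver was sequenced. Females received a locked nucleic acid oligonucleotide (LNA) antisense to miR-802-5p, called LNA-802 here, and males one built against miR-1948-5p, called LNA-1948. A scrambled LNA went to control mice of both sexes. Every mouse was injected under the skin at 9 weeks of age with 2 doses of 25 mg/kg given a day apart, between 10 and 12 in the morning, and livers were taken on day 3 or day 6. The sample labels give an age of 10 weeks for every mouse. At each day there were 5 mice per anti-miR group and 3 mice per scrambled group. The anti-miR always went with 1 sex, the library series code in the sample titles differed between the days, and no group was left without an LNA. The hour at which livers were taken is not given in the sources used here, and mRNA of most of these genes is known to swing through the day.

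In the liver clock, ARNTL pairs with CLOCK or with its relative NPAS2 and binds E-box motifs (CACGTG) to switch on the Period, Cryptochrome, REV-ERB and Dbp genes. Period and Cryptochrome proteins then hold the activators back, and REV-ERB proteins repress Arntl and Npas2 through ROR elements, which contain the core AGGTCA. DBP, TEF and HLF bind D-boxes such as TTATGTAA and pass the rhythm on to genes of detoxification and bile acid metabolism, while NFIL3 competes for the same sites.

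Mature miR-802-5p and the LNAs are printed to show which bases the treatment was built against, 5′ to 3′ and with the microRNA seed (bases 2 to 8), or its reverse complement, in capitals. The microRNA is from RefSeq (GRCm38.p6) and the LNAs are as the labels give them.
miR-802-5p: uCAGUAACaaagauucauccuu
LNA-802: gaatctttGTTACTG
LNA-1948: ggcagaatactcata
scrambled LNA: acgtctatacgccca
LNA-802 pairs with bases 2 to 16 of the microRNA. The 7 letters GTTACTG that pair with the miR-802-5p seed were found in the longest annotated 3′ end of 0 of the 10 clock and PAR bZIP genes, against 10.6% of the 8956 genes at 1 FPKM or more and 8.68% of all 21685 genes with such an end. No seed of miR-1948-5p was searched for.

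The windows before 3 member genes are printed because they hold exact E-boxes or D-boxes, and because Per1 and Per3 are the members that differed between sexes. Each gives the 250 bases before a RefSeq transcription start in GRCm38.p6, in the direction of the gene, with exact motif matches in capitals. In the Per1 window the capitals mark 1 E-box and, after it, 1 ROR core on the opposite strand (TGACCT). In the Per3 window they mark 2 D-boxes, and in the Tef window 1 E-box.
Per1, chr11:69098699-69098948, plus strand: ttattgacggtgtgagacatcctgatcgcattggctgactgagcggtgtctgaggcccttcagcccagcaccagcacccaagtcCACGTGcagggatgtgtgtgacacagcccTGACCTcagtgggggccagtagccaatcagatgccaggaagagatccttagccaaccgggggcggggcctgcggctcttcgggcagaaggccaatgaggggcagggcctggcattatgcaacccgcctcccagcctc
Per3, chr4:151044666-151044915, minus strand: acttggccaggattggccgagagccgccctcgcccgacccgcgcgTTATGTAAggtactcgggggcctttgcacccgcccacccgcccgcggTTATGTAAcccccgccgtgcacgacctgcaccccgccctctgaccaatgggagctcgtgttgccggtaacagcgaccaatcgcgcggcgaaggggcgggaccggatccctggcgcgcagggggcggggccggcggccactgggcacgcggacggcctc
Tef, chr15:81811164-81811413, plus strand: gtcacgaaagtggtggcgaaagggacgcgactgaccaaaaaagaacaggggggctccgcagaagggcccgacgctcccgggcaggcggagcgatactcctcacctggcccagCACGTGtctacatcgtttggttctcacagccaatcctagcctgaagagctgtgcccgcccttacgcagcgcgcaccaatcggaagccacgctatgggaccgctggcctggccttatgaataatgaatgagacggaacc
RefSeq windows were matched for 9 of the 10 genes, at 12 starts. The E-box CACGTG, which reads the same on both strands, lay before 2 of the 9 genes, namely before both starts of Tef and 1 of the 2 starts of Per1. A D-box (TTATGTAA or TTACGTAA, both strands) lay before Per3, where it occurred 2 times, beginning at positions -205 and -158 from the start. The ROR core AGGTCA (both strands) lay before Nr1d2 and Per1. Of all 32851 mouse windows of this length, 6.02% held the E-box, 0.931% a D-box and 4607 windows the ROR core. A match describes letters in a window and shows no binding.

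**Figure D1:**
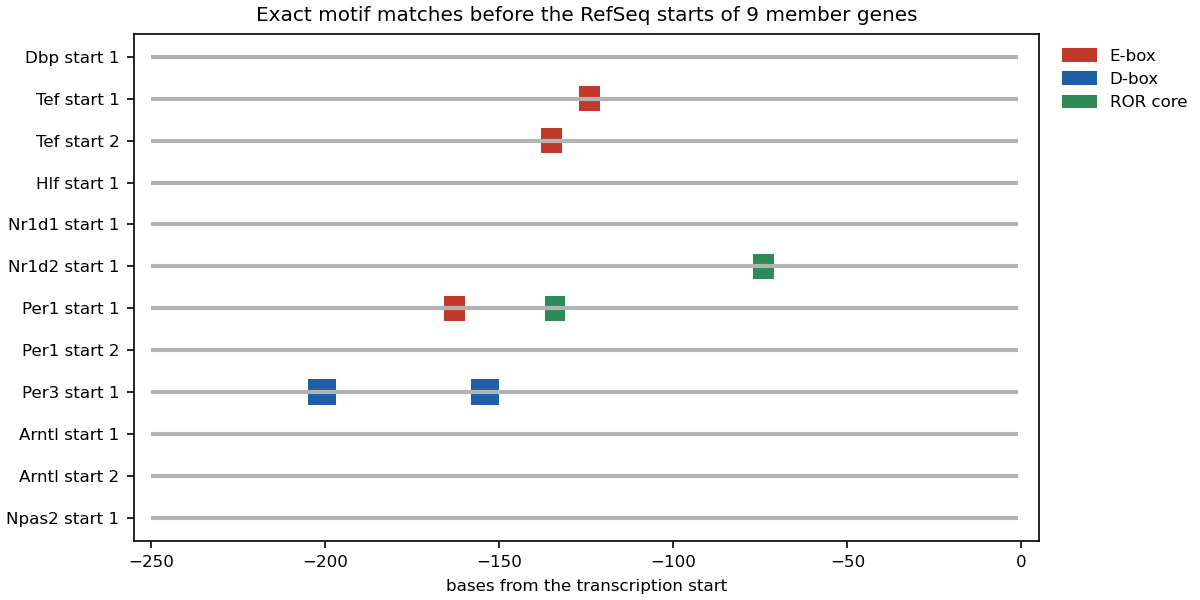
Exact motif matches in the 250 bases before each of the 12 RefSeq starts of 9 clock and PAR bZIP genes, with the horizontal axis in bases from the start and coloured boxes for the E-box, D-box and ROR core. The pair of D-boxes before Per3 and the E-boxes before Tef and Per1 can be seen, and 7 starts hold no match.

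Levels below are group means in FPKM, fragment counts scaled to transcript length and library size. The authors gave no values per mouse in this table, so a group mean carries no error, library depth is unknown, and the spread between mice enters only through the p-values of their edgeR fit. From 9004 to 9327 genes reached 1 FPKM in a group. The 7 hepatocyte markers measured summed to between 20803 and 29194 FPKM, while 0 of 7 lymphocyte and 0 of 4 neutrophil markers reached 1 FPKM in any group. By the median of the 8 group means in the authors' deposited table, the order was Nr1d1 (12.4 FPKM), Nr1d2 (6.51), Tef (5.55), Arntl (4.74), Hlf (3.47), Dbp (2.25), Per1 (1.48), Per2 (1.20), Npas2 (1.12) and Per3 (0.840). Along this order the range of group means did not overlap between Nr1d1 and Nr1d2, nor between Arntl and Hlf, and it overlapped for every other pair of neighbours. The widest ranges belonged to Per1, whose highest group mean was 9.68 times its lowest, then Dbp (6.18 times) and Per3 (3.94 times). The other 7 genes ranged over 1.32 to 1.68 times.

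**Figure D2:**
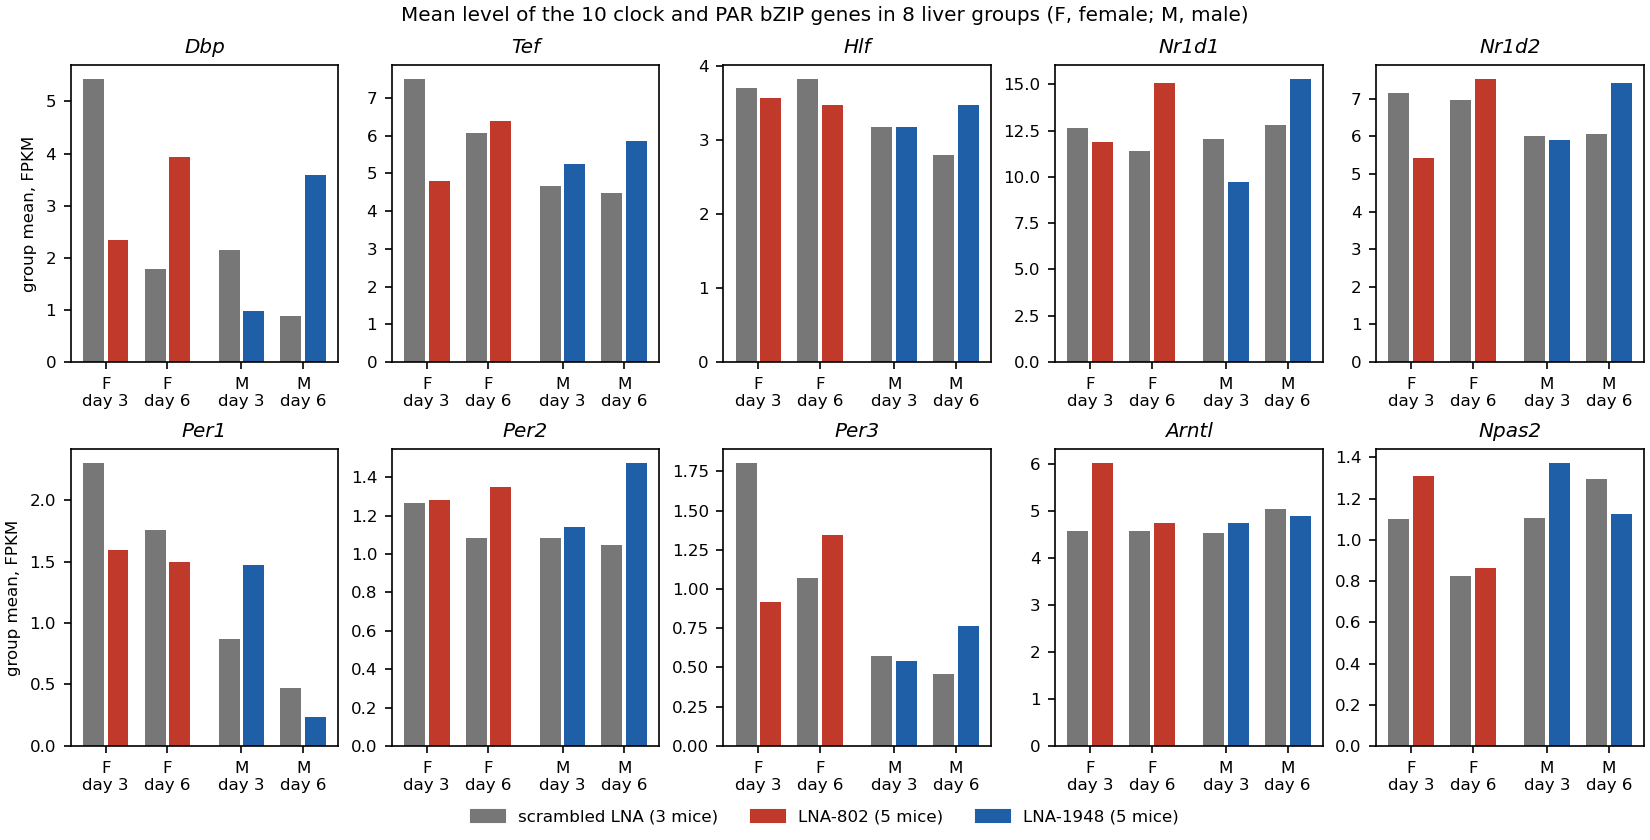
Group mean level (bars, FPKM, each axis from 0) of the 10 genes in females (F) and males (M) at day 3 and day 6, with scrambled LNA in grey, LNA-802 in red and LNA-1948 in blue; no error bars are drawn because the table gives no values per mouse. Dbp lies lower with either anti-miR at day 3 and higher at day 6, Per1 and Per3 lie lower in the scrambled males than in the scrambled females, and Hlf and Arntl vary little.

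Among the PAR bZIP genes, which carry the rhythm to output genes, Dbp varied most between groups. In the authors' deposited table, the mean of Dbp in females at day 3 was 5.42 FPKM with scrambled LNA and 2.35 with LNA-802, and at day 6 it was 1.78 with scrambled LNA and 3.93 with LNA-802. In males the Dbp means there were 2.15 FPKM with scrambled LNA and 0.978 with LNA-1948 at day 3, and 0.877 with scrambled LNA and 3.58 with LNA-1948 at day 6. With both LNAs, then, Dbp stood below the scrambled group at day 3 and above it at day 6. None of the 4 ratios passed the threshold of an edgeR adjusted p of 0.05. For LNA-802 the authors' deposited table gave Dbp a ratio of -1.24 on the log2 scale at day 3 (SE 0.80, edgeR p = 0.120, adjusted p = 1) and of 1.16 at day 6 (SE 0.47, edgeR p = 0.0131, adjusted p = 0.674). For LNA-1948 the ratios of the authors' deposited table were -1.10 on the log2 scale at day 3 (SE 0.66, edgeR p = 0.0933, adjusted p = 1) and 1.96 at day 6 (SE 0.78, edgeR p = 0.0117, adjusted p = 1). Log2 ratios here and below were computed as the log2 of the ratio in that table. These standard errors (SE) were worked back from the authors' p-values and are approximate.

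Because the sign of the Dbp ratio differed between days, the change of effect from day 3 to day 6 was tested in each sex by an approximate z test. With LNA-802 the log2 ratio of Dbp was 2.40 higher at day 6 than at day 3 (SE 0.92, approximate 95% interval 0.59 to 4.21, two-sided). After Benjamini-Hochberg adjustment over 9375 genes it did not pass (adjusted p = 0.858). With LNA-1948 it was 3.06 higher (SE 1.02, interval 1.07 to 5.06) and did not pass over 9119 genes either (adjusted p = 0.246). Between the LNAs, the difference of the Dbp log2 ratios, LNA-802 minus LNA-1948, was -0.13 at day 3 (interval -2.16 to 1.89) and -0.80 at day 6 (interval -2.58 to 0.98), and intervals this wide hold large differences in either direction. The 742 bases at one end of Dbp (mm9 chr7:52964832-52965573) overlap Sphk2, a sphingosine kinase gene on the opposite strand. The libraries were strand-specific per the labels, but whether counting used the strand is not stated, so reads of this overlap may have been shared. Sphk2 stayed between 5.88 and 6.89 FPKM in the 8 groups of the authors' deposited table, with log2 ratios of -0.25 to 0.08 in the 4 anti-miR and 2 single-day sex comparisons (edgeR adjusted p = 1 in each).

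Tef and Hlf, the other PAR bZIP factors, varied less. The Tef means in the authors' deposited table were 7.49 FPKM (scrambled) and 4.80 (LNA-802) in females at day 3, 6.08 and 6.40 at day 6, 4.67 (scrambled) and 5.24 (LNA-1948) in males at day 3, and 4.47 and 5.85 at day 6. The Hlf means, in the same order in the authors' deposited table, were 3.70, 3.56, 3.82, 3.47, 3.18, 3.17, 2.79 and 3.47 FPKM. The Tef value furthest from its control was that of LNA-802 at day 3, which did not pass: the log2 ratio in the authors' deposited table was -0.67 (SE 0.34, edgeR p = 0.0502, adjusted p = 1). The highest Hlf ratio was with LNA-1948 at day 6, at 0.26 on the log2 scale in the authors' deposited table (SE 0.13, edgeR p = 0.0451, adjusted p = 1).

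The REV-ERB genes were the most abundant of the set. Nr1d1, which encodes REV-ERB alpha, had means in the authors' deposited table of 12.6 FPKM (scrambled) and 11.9 (LNA-802) in females at day 3, 11.4 and 15.1 at day 6, 12.1 (scrambled) and 9.70 (LNA-1948) in males at day 3, and 12.8 and 15.3 at day 6. Nr1d2, which encodes REV-ERB beta, had 7.14, 5.43, 6.97, 7.51, 6.01, 5.90, 6.06 and 7.42 FPKM in the same order of the authors' deposited table. For both genes each anti-miR group was below its control at day 3 and above it at day 6, as for Dbp, and neither gene passed the threshold on either day. At day 3 the log2 ratios with LNA-802 and LNA-1948 were -0.12 (SE 0.49) and -0.30 (SE 0.28) for Nr1d1. For Nr1d2 they were -0.43 (SE 0.37) and -0.02 (SE 0.21). The approximate 95% interval of every ratio of these genes held 0 on both days, so the direction is not established. The Nr1d1 log2 ratio in the authors' deposited table was furthest from 0 with LNA-802 at day 6, at 0.42 (SE 0.23, edgeR p = 0.0658, adjusted p = 1), and that of Nr1d2 with LNA-802 at day 3, at -0.43 (SE 0.37, edgeR p = 0.244, adjusted p = 1).

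Of the Period genes, which encode the inhibitors of the loop, Per1 followed another course. Its means in the authors' deposited table were 2.30 FPKM (scrambled) and 1.60 (LNA-802) in females at day 3, 1.76 and 1.49 at day 6, 0.874 (scrambled) and 1.47 (LNA-1948) in males at day 3, and 0.471 and 0.238 at day 6. Per1 was thus lower than its control with LNA-802 on both days, while with LNA-1948 it was higher at day 3 and lower at day 6. In the authors' deposited table the Per1 log2 ratios were -0.56 (SE 0.23, edgeR p = 0.0127, adjusted p = 1) and -0.22 (SE 0.36) with LNA-802 at days 3 and 6, and 0.76 (SE 0.60) and -1.04 (SE 0.37, edgeR p = 0.00519, adjusted p = 0.748) with LNA-1948. The last of these has both groups below 1 FPKM. At day 3 the 10 Kupffer cell markers summed to 71.1 FPKM with LNA-1948 against 48.7 with scrambled LNA, and 0 were called. At an unadjusted edgeR p under 0.05 there were 9, against 3.83% of genes at 1 FPKM or more. In that comparison 9 of the 10 markers reached 1 FPKM. The part of these markers in the Per1 value of that day was not tested. The change of the LNA-1948 effect from day 3 to day 6 was -1.79 for Per1 (SE 0.71, interval -3.18 to -0.40, adjusted p of the z test 0.528).

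Per2 and Per3 were low throughout. Per2 means in the authors' deposited table were 1.27, 1.28, 1.08, 1.35, 1.09, 1.14, 1.05 and 1.47 FPKM in the order used above, and Per3 means 1.80, 0.917, 1.07, 1.34, 0.576, 0.544, 0.457 and 0.762 FPKM. Per3 was below its control at day 3 and above it at day 6 with both LNAs, and Per2 was above its control at day 6 with both. With LNA-1948 at day 3 the Per3 log2 ratio was -0.06 (SE 0.41), well within its error and with both groups under 1 FPKM. Per3 departed most with LNA-802 at day 3, where the authors' deposited table put it at -1.01 on the log2 scale (SE 0.64, edgeR p = 0.115, adjusted p = 1), and Per2 with LNA-1948 at day 6, at 0.43 (SE 0.24, edgeR p = 0.0759, adjusted p = 1).

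The activators, which drive the loop, showed small differences. Arntl means in the authors' deposited table were 4.58, 6.02, 4.57, 4.74, 4.54, 4.74, 5.04 and 4.89 FPKM, and Npas2 means 1.10, 1.31, 0.824, 0.865, 1.11, 1.37, 1.30 and 1.13 FPKM. Arntl was highest in the LNA-802 females of day 3. Its log2 ratio there was 0.35 in the authors' deposited table (SE 0.19, edgeR p = 0.0609, adjusted p = 1). Dbp, Tef, Nr1d2, Per3 and, at -0.01, Per2 had the lowest of their 4 ratios to the control in that group. The lowest ratios of Nr1d1, Hlf, Per1 and Npas2 lay elsewhere. They were -0.30 for Nr1d1 with LNA-1948 at day 3, -0.12 for Hlf with LNA-802 at day 6, and -1.04 for Per1 and -0.25 for Npas2 with LNA-1948 at day 6. None of these ratios passed the adjusted threshold.

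Counted over the set, 0 of the 10 genes passed an edgeR adjusted p of 0.05 in any of the 4 anti-miR comparisons of the authors' deposited table. Few genes of any kind passed: 0.0165% of all genes with LNA-802 at day 3, 0.339% with LNA-802 at day 6, 0.0537% with LNA-1948 at day 3 and 0.124% with LNA-1948 at day 6. At an unadjusted edgeR p under 0.05, the members that passed were 1 with LNA-802 at day 3 (Per1), 1 with LNA-802 at day 6 (Dbp), 0 with LNA-1948 at day 3 and 3 with LNA-1948 at day 6 (Dbp, Hlf and Per1). The corresponding shares of genes at 1 FPKM or more were 4.09%, 7.23%, 3.83% and 4.91%. Per1 was under 1 FPKM in both groups of LNA-1948 day 6, so it is in the count but not in that share. Of the 8 members at 1 FPKM or more in that comparison, Dbp and Hlf passed. With LNA-802, 8 of the 10 log2 ratios were negative at day 3 (median -0.27) and 8 were positive at day 6 (median 0.11). With LNA-1948, 5 were positive and 5 negative at day 3 (median 0.03), and 7 were positive at day 6 (median 0.25). The median over all genes at 1 FPKM or more lay between -0.01 and 0.01 in the 4 comparisons.

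**Figure D3:**
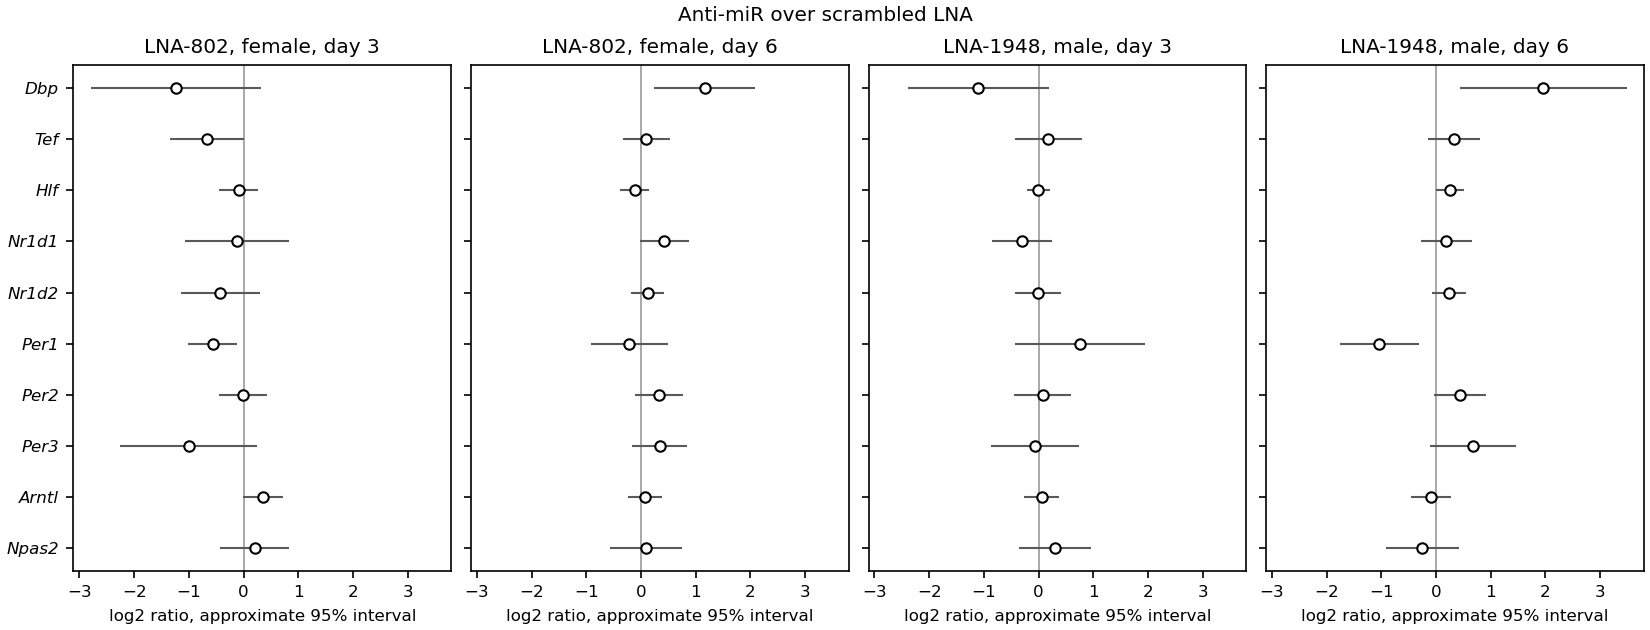
Log2 ratio of each anti-miR group over its scrambled control (circles, from the authors' edgeR fit) with an approximate 95% interval (lines) for the 10 genes; open circles have an adjusted p above 0.05. All 40 circles are open, and Dbp moves from -1.24 to 1.16 between the days with LNA-802 and from -1.10 to 1.96 with LNA-1948.

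The z test of differences between effects was read over the whole set. Of the 10 genes, 0 passed an adjusted p of 0.05 in any of the 5 tests run, namely day 6 minus day 3 for LNA-802, LNA-1948 and the male to female ratio, and LNA-802 minus LNA-1948 at each day. The shares of all genes tested that passed, in that order, were 0.0747%, 0.504%, 0.309%, 0.257% and 0.492%. At an unadjusted p under 0.05 the members past it were Dbp for LNA-802, Dbp and Per1 for LNA-1948, none for the sex ratio, Per1 between the LNAs at day 3 and Hlf between them at day 6, against 3.81%, 5.22%, 4.39%, 5.04% and 4.38% of all genes tested. Per3 was not among the genes adjusted for LNA-1948 because it was under 1 FPKM in all 4 male groups.

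The errors of the set were wide. The approximate SE of the Dbp log2 ratio was 0.47 to 0.80 in the 4 anti-miR comparisons, 3.11 to 5.61 times the median SE of genes at 1 FPKM or more, which placed it at the 97.1st to 98.7th percentile of those genes. Nr1d1, although the most abundant member, lay at the 87.0th to 97.0th percentile, and Per3 at the 90.3rd to 98.0th. Hlf was the narrowest, at the 2.81st to 65.8th percentile, and Arntl lay at the 57.1st to 79.7th. Of the 10 genes, 10, 8, 9 and 9 had an SE above the median of genes with a mean of 1 to 10 FPKM in LNA-802 day 3, LNA-802 day 6, LNA-1948 day 3 and LNA-1948 day 6. These counts include members outside that band, so they are not matched for level. Nr1d1 lay above it in all 4 comparisons. Below it were Per3 in both LNA-1948 comparisons, Npas2 with LNA-802 at day 6 and Per1 with LNA-1948 at day 6. The values per mouse behind these errors are not in the table used here.

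**Figure D4:**
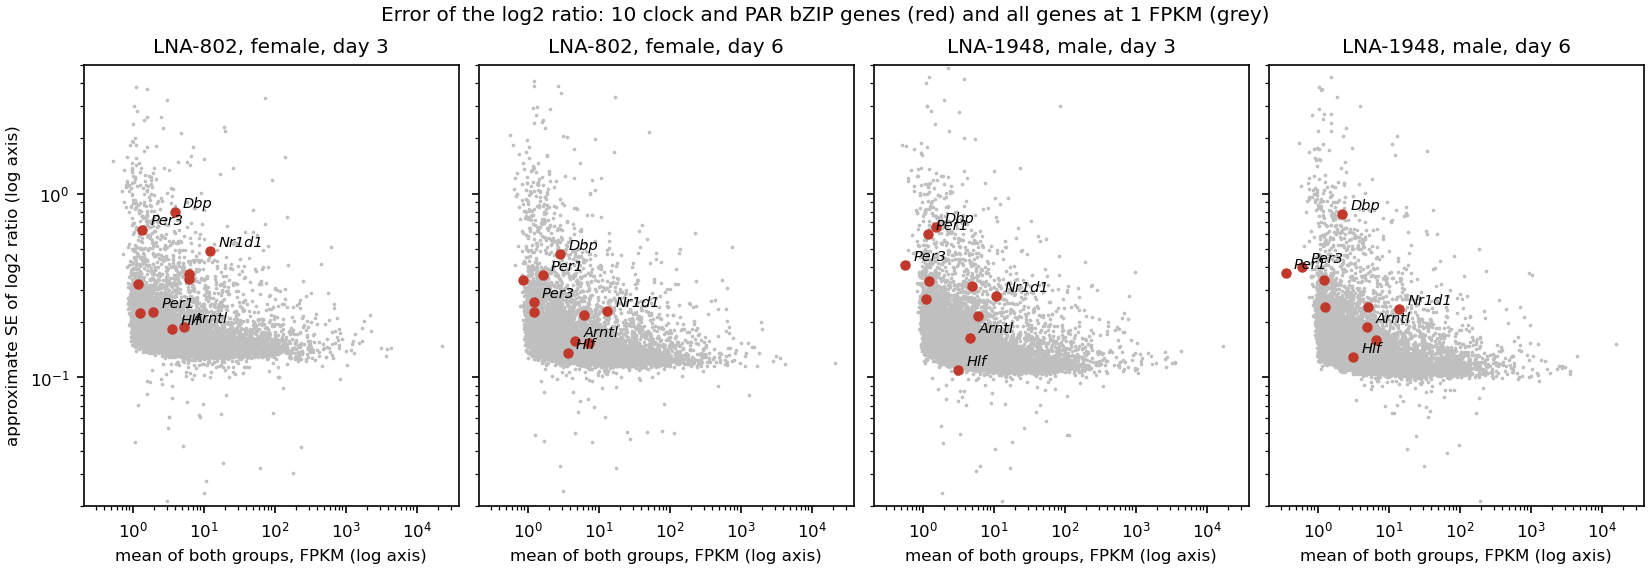
Approximate standard error of the log2 ratio (vertical, log axis) against the mean of both groups in FPKM (horizontal, log axis) in the 4 anti-miR comparisons, for genes at 1 FPKM or more (grey points) and the 10 clock and PAR bZIP genes (red points). Dbp stands at 0.47 to 0.80, above most genes of like level, while Hlf and Arntl lie near the main body of points; a few grey points fall outside the axis.

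Between sexes, Per1 and Per3 were lower in males. Scrambled males were compared with scrambled females, mice that also serve as controls of the anti-miR comparisons. In the authors' deposited table Per1 was 2.62-fold lower in males at day 3 (0.874 against 2.30 FPKM, log2 ratio -1.39, SE 0.34, edgeR adjusted p = 0.00263) and 3.51-fold lower at day 6 (0.471 against 1.76 FPKM, log2 ratio -1.81, SE 0.41, edgeR adjusted p = 0.000568). Per3 was 2.21-fold lower in males at day 6 in the authors' deposited table (0.457 against 1.07 FPKM, log2 ratio -1.14, SE 0.23, edgeR adjusted p = 5.78e-05). At day 3 the Per3 log2 ratio was -1.64 with a wider error (0.576 against 1.80 FPKM, SE 0.74, edgeR adjusted p = 0.356 in the authors' deposited table), and the male to female ratio of Per3 differed between days by 0.50 (interval -1.02 to 2.03), within its error. In the authors' fit over both days of the deposited table, Per1 (log2 ratio -1.55, edgeR adjusted p = 0.000102) and Per3 (-1.43, edgeR adjusted p = 0.0277) were both lower in males.

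The members called were 1 of 10 at day 3, 2 of 10 at day 6 and 2 of 10 over both days, all lower in males, where 3.36%, 4.43% and 7.81% of all genes were called in either direction and 1.99%, 2.52% and 4.62% were called lower. At an unadjusted edgeR p under 0.05 they were 2, 5 and 3 of 10, against 16.8%, 19.5% and 27.0% of genes at 1 FPKM or more. Per2, the third Period gene, did not pass at either day, which the authors' deposited table put at -0.21 (SE 0.34) and 0.05 (SE 0.25) on the log2 scale. Dbp, which did not pass, was at -1.34 (SE 0.91, edgeR adjusted p = 0.855) and -0.93 (SE 0.40, edgeR adjusted p = 0.254) on the log2 scale of the authors' deposited table. Npas2, at 1.30 FPKM in males against 0.824 in females at day 6, stood at 0.76 on the log2 scale of the authors' deposited table (SE 0.26, edgeR adjusted p = 0.0841), which passed when the adjustment was over genes at 1 FPKM or more (adjusted p = 0.0424). Hlf did not pass either, and the authors' deposited table put it at -0.20 (SE 0.19) at day 3 and -0.36 (SE 0.14, edgeR adjusted p = 0.176) at day 6. None of Tef (-0.68, SE 0.43, and -0.35, SE 0.21), Nr1d1 (-0.06, SE 0.57, and 0.26, SE 0.16) and Nr1d2 (-0.24, SE 0.41, and -0.11, SE 0.16) passed at day 3 or day 6 in the authors' deposited table. Arntl was at 0.00 (SE 0.37) and 0.24 (SE 0.16) in the authors' deposited table, and neither passed. In bulk liver, fewer cells of a type and less RNA per cell cannot be told apart. All 10 Kupffer cell markers were detected, and their summed level was 85.0 and 85.3 FPKM in scrambled females against 48.7 and 51.6 in scrambled males at days 3 and 6, with 9 and 8 of 10 called lower in males. The part of this marker difference in the Per1 and Per3 values was not tested.

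**Figure D5:**
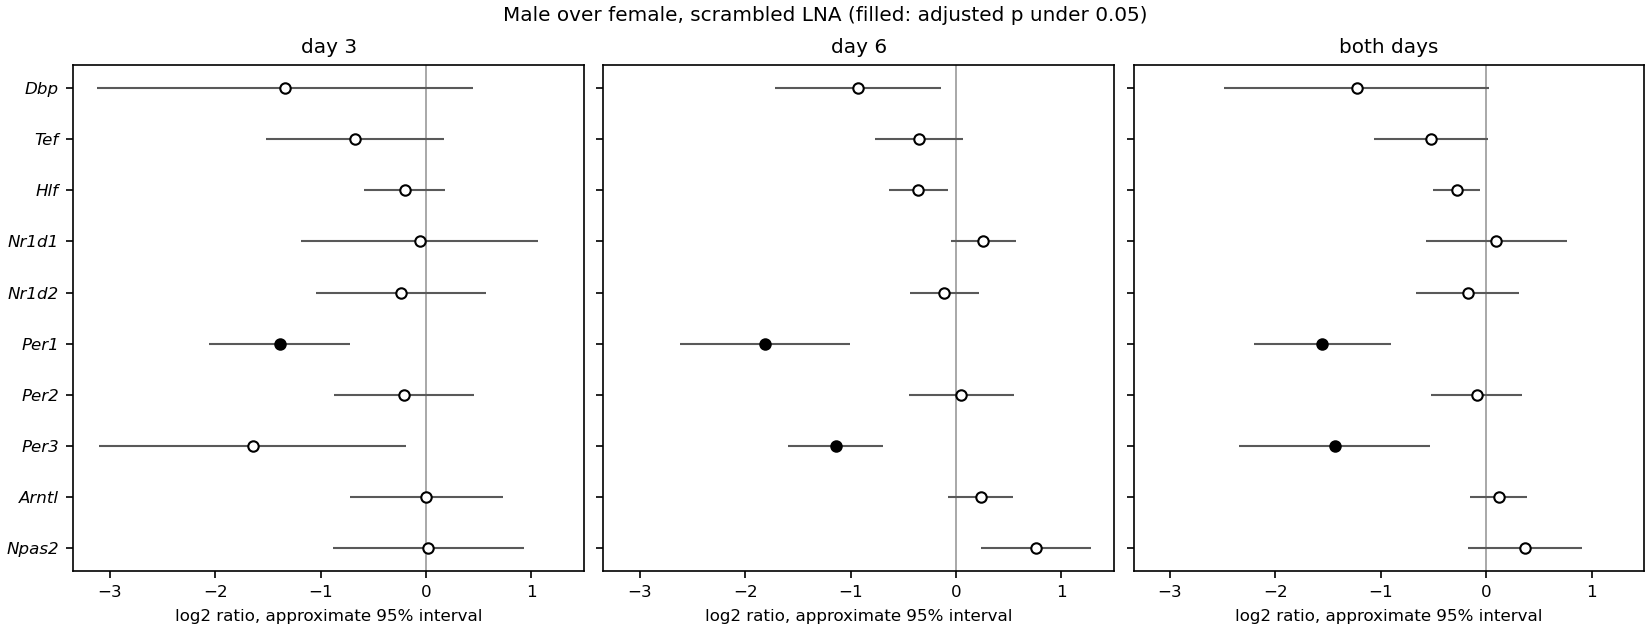
Log2 ratio of scrambled males over scrambled females (circles, from the authors' edgeR fit) with an approximate 95% interval (lines) for the 10 genes at day 3, day 6 and over both days; filled circles have an adjusted p under 0.05. Per1 is filled in all 3 panels and Per3 at day 6 and over both days, all to the left of 0.

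Other clock genes are given from a list of 13 that holds the partner CLOCK, the Cryptochromes, ROR receptors, NFIL3, the DEC repressors, casein kinases and related genes. With the anti-miRs 0 of 13 passed an edgeR adjusted p of 0.05 by the authors' deposited table, and 2, 3, 2 and 0 passed at an unadjusted p under 0.05 in LNA-802 day 3, LNA-802 day 6, LNA-1948 day 3 and LNA-1948 day 6, against 4.09%, 7.23%, 3.83% and 4.91% of genes at 1 FPKM or more. The count of 3 includes Ciart, which was under 1 FPKM in both groups of that comparison. Cry1, a Cryptochrome repressor, had the smallest p of the 13 genes with the anti-miRs, at 2.69 FPKM with LNA-802 against 1.77 with scrambled LNA at day 6 in the authors' deposited table (log2 ratio 0.63, edgeR p = 0.00106, adjusted p = 0.168). Nfil3, which binds D-boxes as a repressor, was 9.43 FPKM with LNA-802 against 6.36 at day 3, and 6.13 with LNA-1948 against 8.78 at day 3, which the authors' deposited table expressed as 0.53 and -0.53 on the log2 scale (edgeR adjusted p = 1 for both). Between scrambled males and females, Bhlhe40, the DEC1 repressor, was lower in males at both days of the authors' deposited table (log2 ratios -0.74 and -0.94, edgeR adjusted p = 0.0112 and 2.56e-06). Ciart, another repressor of the loop, was lower in males at day 3 at a level under 1 FPKM (log2 ratio -1.99, edgeR adjusted p = 0.0499 in the authors' deposited table). Rora, a receptor that activates through ROR elements, was higher in males at day 6 (4.73 against 3.71 FPKM, log2 ratio 0.44, edgeR adjusted p = 0.0362 in the authors' deposited table).

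A list of 8 liver genes held to depend on PAR bZIP factors in mice held Alas1, Por, Nr1i3, Cyp2a4, Cyp2a5, Cyp7a1, Ddc and Cyp2b10. Like the other lists, it was chosen with earlier results of these data known. Its counts beside the shares of all genes are therefore description and no test of the list. With LNA-802 0 of 8 passed at day 3, and 1 passed at an unadjusted edgeR p under 0.05, against 4.09% of genes at 1 FPKM or more. At day 6, 3 of 8 were called lower than in the scrambled group, where 0.339% of all genes were called. Dbp, which did not pass, stood at 3.93 against 1.78 FPKM there. Kupffer cell markers summed to 69.1 FPKM with LNA-802 against 85.3 with scrambled LNA in this day 6 comparison, and 0 of 10 were called. At an unadjusted edgeR p under 0.05 there were 5, against 7.23% of genes at 1 FPKM or more. The 9 markers that reached 1 FPKM there all had negative log2 ratios. The part of these markers in the values of the 8 genes was not tested. The genes called lower were Cyp7a1, whose enzyme starts the main route from cholesterol to bile acids (13.2 against 34.7 FPKM, log2 ratio -1.39, edgeR adjusted p = 0.00021 in the authors' deposited table), and the P450 genes Cyp2a4 (63.6 against 127 FPKM, edgeR adjusted p = 0.0218) and Cyp2a5 (26.1 against 49.8 FPKM, edgeR adjusted p = 0.00186). At day 3 the LNA-802 and scrambled means were 23.2 and 14.5 FPKM for Cyp7a1, 85.7 and 73.7 for Cyp2a4, and 43.8 and 41.8 for Cyp2a5. The scrambled means of these genes were thus higher at day 6 than at day 3, with no test, so the day 6 ratios rest on both groups. With LNA-1948 0 of 8 passed at day 3, and 2 passed at an unadjusted edgeR p under 0.05, against 3.83% of genes at 1 FPKM or more. At day 6, 2 of 8 were called higher than in the scrambled group, where 0.124% of all genes were called. Dbp, which did not pass, stood at 3.58 against 0.877 FPKM there. The genes called higher were Cyp2a5 (27.6 against 5.83 FPKM, log2 ratio 2.20, edgeR adjusted p = 0.00021 in the authors' deposited table) and Ddc, aromatic amino acid decarboxylase (63.4 against 38.3 FPKM, log2 ratio 0.67, edgeR adjusted p = 0.000376 in the authors' deposited table). Their LNA-1948 and scrambled means at day 3 were 7.23 and 8.66 FPKM for Cyp2a5, and 45.5 and 52.4 for Ddc. The scrambled means of both genes were thus lower at day 6 than at day 3, with no test. With LNA-1948 at day 6, 6 of the 8 log2 ratios were positive and 2 negative. Lower with LNA-1948, and not called, were Cyp2a4 (0.994 against 2.97 FPKM) and Cyp2b10 (2.43 against 3.63 FPKM). Cyp2a4 and Cyp2a5 are near-identical copies and their reads may have been divided by the counting. The median log2 ratio of the 8 genes was 0.18, -0.53, 0.25 and 0.30 in LNA-802 day 3, LNA-802 day 6, LNA-1948 day 3 and LNA-1948 day 6, beside medians of all genes between -0.01 and 0.01. In scrambled males 5 of the 8 were lower and 1 higher than in females at day 3, where 1.99% of all genes were called lower and 3.36% in either direction, and 7 of 8 were lower at day 6, where 2.52% of all genes were called lower.

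Of 12 rhythmic output genes of liver, 0 passed in any of the 4 anti-miR comparisons of the authors' deposited table, and 2, 1, 0 and 3 passed at an unadjusted edgeR p under 0.05, for which the shares of genes at 1 FPKM or more were 4.09%, 7.23%, 3.83% and 4.91%. The count of 3 with LNA-1948 at day 6 includes Ccrn4l, which was under 1 FPKM in both groups. The smallest p was that of Lpin1, a phosphatidate phosphatase gene, at 5.75 FPKM with LNA-802 against 11.2 at day 3 (ratio 0.499, edgeR adjusted p = 0.191 in the authors' deposited table). Between scrambled males and females, 3 of the 12 were lower and 1 higher in males at day 3, and 3 were lower and 2 higher at day 6. Of all genes, 1.99% and 2.52% were called lower in males at days 3 and 6, and 3.36% and 4.43% in either direction. Elovl3, a fatty acid elongase gene, was higher in males at both days (50.3 against 1.26 FPKM, edgeR adjusted p = 3.17e-94, and 54.5 against 1.53 FPKM, edgeR adjusted p = 9.63e-82, in the authors' deposited table), and Insig2, which restrains sterol synthesis, was higher at day 6 (76.5 against 40.3 FPKM, edgeR adjusted p = 1.84e-10). Klf10 and Avpr1a were lower in males at both days. Ccrn4l, the deadenylase-related gene also called nocturnin, was lower in scrambled males than females at day 3 (1.34 against 3.68 FPKM, log2 ratio -1.45, edgeR adjusted p = 0.00176) and at day 6 (0.366 against 4.29 FPKM, log2 ratio -3.47, edgeR adjusted p = 8.72e-51) in the authors' deposited table. Among 7 genes induced by glucocorticoid, a hormone that also induces Per1, 1 passed with an anti-miR. Dusp1, a MAP kinase phosphatase gene, was lower with LNA-1948 at day 6 (2.81 against 4.71 FPKM, log2 ratio -0.80, edgeR adjusted p = 0.00123 in the authors' deposited table), where 0.124% of all genes were called. Per1, which did not pass there, stood at 0.238 against 0.471 FPKM. The median log2 ratio of the 7 genes in that comparison was -0.08, with 1 positive and 6 negative. At an unadjusted edgeR p under 0.05, 2, 2, 1 and 3 of the 7 passed in the 4 anti-miR comparisons, against the shares given above for the output genes. The part of glucocorticoid in the Per1 values was not tested. In scrambled males 2 of these 7 genes, Fkbp5 and Sgk1, were lower than in females at day 3 and Zbtb16 was higher, and Sgk1 was lower at day 6. The shares of all genes called between sexes are those given above for the output genes.

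From day 3 to day 6 within a treatment the authors gave no comparison, so ratios of mean FPKM with a pseudocount of 0.1 are given with no test, and day goes with the library series. Dbp was 2.94-fold lower at day 6 than at day 3 in scrambled females and 2.30-fold lower in scrambled males, and it was 1.64-fold higher in LNA-802 females and 3.42-fold higher in LNA-1948 males. A change at least as large as that of Dbp was seen in 0.411%, 0.780%, 1.12% and 0.303% of the genes at 1 FPKM in those 4 pairs, in the order scrambled females, scrambled males, LNA-802 and LNA-1948. The scrambled and the treated means thus lay in opposite directions between days, and the change in sign of the Dbp ratio rests on both. Per1 was lower at day 6 in all 4 pairs, by 1.29-fold in scrambled females, 1.07-fold in LNA-802 females, 1.71-fold in scrambled males and 4.66-fold in LNA-1948 males. The last value depends on the pseudocount, since its log2 ratio was -2.22 with 0.1, -0.999 with 1 and -2.58 with 0.01. Over the 10 genes, 9 of 10 were lower at day 6 in scrambled females (median log2 ratio -0.25), 4 of 10 in LNA-802 females (median 0.20), 6 of 10 in scrambled males (median -0.05) and 2 of 10 in LNA-1948 males (median 0.24). The medians over all genes at 1 FPKM or more were 0.04, -0.01, -0.05 and 0.02 in that order. In scrambled males the members thus lay near all genes.

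Across the 8 group means, which include both sexes, both days and all LNAs, the pairs of members most alike were Per3 and Tef (Pearson r = 0.88 of log2 levels, n = 8 groups), Dbp and Per3 (r = 0.83) and Hlf and Per3 (r = 0.82), and the most opposed were Npas2 and Nr1d2 (r = -0.72). Among 9758 genes with at least 1 FPKM in a group, the 5 non-members most like Dbp were Gmpr2 (r = 0.94), Asb8 (r = 0.94), Gm11127 (r = 0.93), Atp6ap2 (r = 0.93) and H2-Q8 (r = 0.92). Gm11127 and H2-Q8 are MHC class I loci with close copies, and their reads may have been divided by the counting. H2-Q8 ran from 1.54 FPKM in LNA-1948 males at day 3 to 8.32 FPKM in scrambled females at day 3 in the authors' deposited table, whereas Gmpr2, Asb8 and Atp6ap2 each moved over a narrow range (3.15 to 3.63 FPKM for Gmpr2). The 5 most like Arntl were Gipc1 (r = 0.95), Dkc1 (r = 0.92), Bola1 (r = 0.90), Ino80b (r = 0.90) and Rps19bp1 (r = 0.89). These correlations describe 8 means and carry no p.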

How the data were processed

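Values came from 1 deposited table of mouse liver RNA-seq with 5 mice per anti-miR group and 3 per scrambled group. Reads were mapped with TopHat2 to mm9, counted with featureCounts and compared with edgeR, per the submitters' processing notes, with versions not given in the sources used here. Each group is represented by 1 mean FPKM that the authors computed. Per the file headers, 7 comparisons come with an edgeR normalized ratio (fold). The authors also deposited p-values before and after adjustment, and in all 7 comparisons the adjusted ones matched a Benjamini-Hochberg adjustment over all 24197 genes within 1e-07. No counts and no values per mouse were at hand, so depth is unknown and only the authors' calls (adjusted p under 0.05) were read, with no refit.

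The SE of each log2 ratio was computed as its size divided by the normal quantile of its p. Differences between effects with no shared mice were tested by a two-sided z test on these errors, adjusted over genes at 1 FPKM or more, and the script was tested on simulated data. Lists were described by counts and medians with no set test. All 10 members are given in the anti-miR and single-day sex comparisons; of the other lists, those past the threshold, or else the 2 with the smallest p, were eligible to be named. The members and lists were chosen with earlier results of these data known. Whether mice numbered alike are related is not stated, and p-values measure only the spread between these mice. Promoter windows and microRNA sequences came from RefSeq (GRCm38.p6), 3′ ends from GENCODE, and none of their coordinates was joined to mm9 values. Software was Python 3.11.15, numpy 2.4.6, scipy 1.17.1, pandas 2.3.3 and matplotlib 3.10.9.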

Additional observations from a re-analysis of the deposited data

How the results depend on the processing

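No paired analysis was possible because the deposited table holds group means and no values per mouse; the replicate block and leaving out each mouse in turn were not run for the same reason. Alternatives tried were other adjustments and thresholds, ratios of mean FPKM, no filter on low values, other pseudocounts and rescaling to the median gene. With an unadjusted p of 0.05 in place of the adjusted one, members called were 1 with LNA-802 at day 3, 1 with LNA-802 at day 6 and 3 with LNA-1948 at day 6, and 2, 5 and 3 between sexes at day 3, day 6 and over both days. Genes at 1 FPKM or more were also counted at that threshold in the 4 lists of other clock (13 genes), PAR bZIP-dependent (8), output (12) and glucocorticoid genes (7), marker lists left out. Those called were 7, 11, 5 and 8 in LNA-802 day 3, LNA-802 day 6, LNA-1948 day 3 and LNA-1948 day 6. The shares of all genes at 1 FPKM or more were 4.09%, 7.23%, 3.83% and 4.91%. Between sexes at day 3, day 6 and over both days 21, 23 and 23 were called, against shares of 16.8%, 19.5% and 27.0%. The adjusted threshold called 14, 15 and 21 of the listed genes between sexes, and 3.36%, 4.43% and 7.81% of all genes. Per2 with LNA-802 at day 3 went from -0.01 to 0.016 on the log2 scale when the mean FPKM were divided instead, which has no test; the cause was not tested. With a pseudocount of 1 the day 6 to day 3 log2 ratio of Per1 in LNA-1948 males was -0.999 in place of -2.22. Npas2 between sexes at day 6 passed when adjusted over genes at 1 FPKM (0.0424). Apart from these, members' values kept their direction and side of the threshold under the alternatives run. Unknown depth limits the genes under 1 FPKM, among them Per3 in all 4 male groups and Per1 in the male groups other than LNA-1948 at day 3.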
